A study of Bos taurus with 15 samples.

Results

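Caruncular endometrium of pregnant cows was compared with that of cyclic cows on day 18. The members are 8 of the 15 arrays of the series, chosen by the phase written in the labels: 4 of cows on day 18 of gestation (P18) and 4 of cows on day 18 of the estrous cycle (NP18). The other 7 arrays are from day 15 (4 cyclic and 3 pregnant). They share in the probe filter, the choice of probe and the estimate of spread behind the adjusted p-values of the main fit. Their own changes are described only where the change of day 18 is set against that of day 15. All animals were Japanese Black cows of unstated age, with no drug or hormone treatment named in the labels. Day 1 was the day of artificial insemination, and in the study's methods the tissue came from the uterine horn on the side of the corpus luteum, with pregnancy judged by eye from the presence of fetal trophoblast. Each array stands for 1 cow, so that p-values measure the spread between cows.

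The endometrium of the cow is a layer of luminal and glandular epithelium over a stroma rich in vessels and immune cells, and the caruncles are the aglandular sites at which the placenta later attaches. In a cycle without a conceptus, estrogen and oxytocin receptors appear in this tissue late in the luteal phase and pulses of prostaglandin F2α from it end the life of the corpus luteum. An elongating conceptus secretes interferon tau, which acts on the endometrium to keep these pulses away, while the tissue feeds the conceptus with secreted sugars, amino acids and lipids and prepares for its attachment.

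Total RNA was measured on one-colour 60-mer oligonucleotide arrays, and every level below is the signal of a probe divided by the median signal of its array, so that 1 is the median probe. The median signal was 790 to 838 in the cyclic arrays and 407 to 563 in the pregnant arrays, and the scanner software called 73.1 to 76.8% and 65.6 to 73.9% of probes well above background. The faintest signal that was well above background therefore stood at 0.066 to 0.095 array medians in cyclic and 0.102 to 0.18 in pregnant arrays, and levels at or under these values have no order. All 4 cyclic arrays were scanned on 1 day and all 4 pregnant arrays on another, each group on 2 slides of its own. No slide or scan day holds both groups, so the part of the scan and that of pregnancy cannot be told apart.

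Markers of endometrial epithelium and stroma were measured in both groups. The summed level of 8 epithelial markers was 138 to 390 array medians in cyclic and 237 to 337 in pregnant arrays. None of them was called, and their median log2 fold change was −0.40. EPCAM, an adhesion molecule of epithelia, was 72.5 to 153 and 121 to 164 (0.35), and KRT8 (0.18) and CLDN4 (0.55) also had positive differences. Those of CLDN3 (−2.00, adjusted p = 0.0572), KRT7 (−2.26), CDH1 (−1.65), MUC1 (−0.43) and KRT19 (−0.365) were negative. CLDN3 was 19.5 to 58 in cyclic and 3.12 to 19.2 in pregnant arrays. The summed level of 8 stromal markers, of which only COL1A1 fell, was 699 to 1185 in cyclic and 662 to 828 in pregnant arrays. The 10 leukocyte markers summed to 5.91 to 9.9 in cyclic and 10.8 to 20.1 in pregnant arrays, with ITGB2 higher and PTPRC and MS4A1 at or near background. Smooth muscle markers (5 genes, 3 lower) summed to 48.5 to 219 against 19.6 to 60, and endothelial markers (7 genes, 2 lower) to 14.8 to 31.7 against 14.2 to 32.1. In bulk tissue fewer cells of a type and less RNA per cell cannot be told apart. The glandular markers SERPINA14 and FOXA2 were measured in all 8 arrays with sums of 1.57 to 146 in cyclic and 20.8 to 60 in pregnant arrays.

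Over all 5323 named genes with a tested probe, 240 rose (4.51%) and 114 fell (2.14%) in pregnant endometrium by the rule used throughout, a limma adjusted p under 0.05 and a change over 2-fold. The median log2 fold change was 0.07. Of the 240, 200 lay outside the lists of interferon-stimulated, chemokine and trophoblast genes, as did 112 of the 114. All 4 pregnant arrays lay above all 4 cyclic arrays for 11.9% of the genes and below them for 5.88%. Of the genes that rose, 189 were well above background in all 4 pregnant arrays and 16 in none of them, and of those that fell 106 were so in all 4 cyclic arrays. Over probes, named or not, 757 were called and 63.5% of them were higher, a share that became 49.4% with quantile normalization (406 higher, 416 lower). With scan day as a random block, 27 genes were called, all higher: 21 interferon-stimulated genes, SLC7A9, ADRB3, C2, DMC1, PSMF1 and TRIM6. No scan day holds both groups of day 18, so this block cannot separate scan from pregnancy, here or in the calls named below. Under that block limma called no named gene lower and 1 probe lower, with 265 lower probes past 2-fold at an unadjusted p under 0.05. The number of called probes was 428 without pregnant replicate 2, 443 without pregnant replicate 3 and 484 without cyclic replicate 3. With slide as a random block 184 genes were higher and 77 lower. The lower probes numbered 276 over all arrays, against 453 without cyclic replicate 1, 148 without cyclic replicate 3, 153 without cyclic replicate 4, and 124 and 129 without pregnant replicates 2 and 3.

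**Figure D1:**
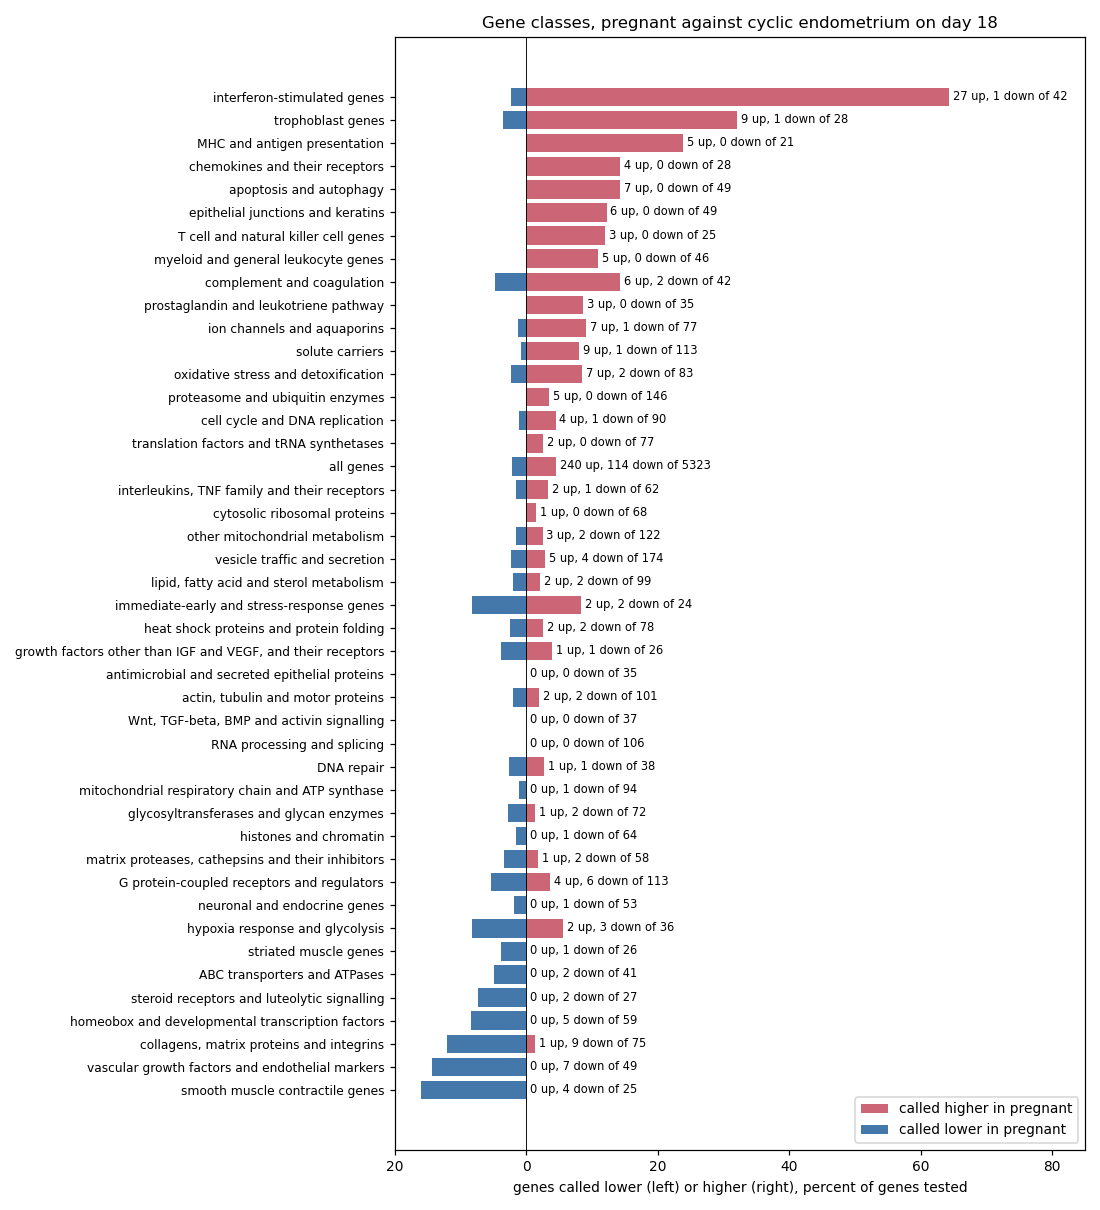
Share of the tested genes of each class called higher (right, red) or lower (left, blue) in pregnant endometrium on day 18, in percent, for classes with 20 or more tested genes, with the counts written beside each bar. The row of all genes stands at 4.51% higher and 2.14% lower. Interferon-stimulated genes have 27 of 42 higher at the top, and smooth muscle genes 4 of 25 lower at the bottom.

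RNA of the conceptus was present in the pregnant samples in unequal amounts. Of 28 tested trophoblast genes 9 rose, namely interferon tau (2 genes), trophoblast Kunitz domain proteins (3) and pregnancy-associated glycoproteins (4). TKDP4, a Kunitz protein made by trophoblast, was 0.0166, 0.0193, 0.0849 and 0.0341 array medians in the cyclic arrays, never well above background, and 0.271, 66.6, 45 and 307 in the pregnant arrays. Pregnant replicate 1 was far below the other pregnant arrays, yet above every cyclic array. TKDP4 was at least 272-fold higher in pregnant arrays (adjusted p = 0.00201), a bound that was 1181 without pregnant replicate 1 and 113 without pregnant replicate 4. IFN-tau-c1, an interferon tau gene, was 0.0978 in pregnant replicate 1 against 19.5, 16.8 and 117 in the others. The bound for IFN-tau-c1 was 95, which became 409 without pregnant replicate 1 and 38.6 without replicate 4, and that for TKDP1 was 99, which became 490 and 39.9, or 62.2 without replicate 2. ELF5, a transcription factor of trophoblast that epithelia also use, fell instead (log2 fold change −2.34, adjusted p = 0.0262). It did not pass without cyclic replicates 2 or 4 or pregnant replicates 2 or 3. The summed level of 11 trophoblast markers in pregnant replicate 1 was 1.17, under the cyclic range of 1.26 to 2.64, against 141, 84.7 and 614.5 in the other pregnant arrays. TFAP2C and ELF5, which were measured in cyclic cows too, are part of that sum. In pregnant replicate 1 TKDP4 was well above background and higher than in any cyclic array. TKDP1, TKDP3 and IFN-tau-c1 were not well above background in that array, so their levels there have no order against the cyclic arrays. The number of trophoblast genes called higher was 6 without pregnant replicate 2. The part of trophoblast RNA in the changes below was not tested.

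The first 30 of the 60 bases of the probes of these proteins show that each Kunitz protein gene was read by a sequence of its own, the best ungapped alignment of any pair matching 26 of 58 bases.
TKDP1: acatccctcatgaccagagtaactgcagag
TKDP3: agagaagagtttgggataaagaagccccta
TKDP4: aagaagctccttgctgcattttcttttctg
PAG11: ggatgctggtaaactgtgtttggtgctctg
The probes of PAG8 and PAG11 matched in 35 of 57 aligned bases, and further members of these large families may still bind to any of them.

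Interferon-stimulated genes, the antiviral programme switched on by interferon tau, moved most. Of 42 tested, 27 rose and SAMHD1 alone fell, a gene picked out after its value was seen, and their median log2 fold change was 2.12 against 0.07 over all genes. ISG15, a ubiquitin-like modifier, was 17, 14.6, 8.71 and 8.41 in cyclic and 626, 689, 834 and 416 in pregnant arrays (log2 fold change 5.74 ± 0.51, SE, adjusted p = 2.71e-05). Its highest level in cyclic cows was far under its lowest in pregnant cows. MX2 and OAS2, antiviral effectors, rose by 6.09 and 6.19 on the log2 scale, though in cyclic cows only 2 arrays for MX2 and 3 for OAS2 exceeded background clearly. Of 28 chemokines and receptors 4 rose and none fell. CCL8, CCL11 and CXCL10, which attract leukocytes, had mean levels of 31.7, 0.937 and 95 in pregnant endometrium, and CCL11 was at least 8.43-fold higher, or 5.61-fold without pregnant replicate 3.

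Receptors that govern luteolysis gave few calls and spread widely between cyclic cows. Of 27 steroid receptor and luteolytic genes 2 fell (ESR1 and GHR), none rose, and the median log2 fold change was −0.15. Of these genes 4 fell without cyclic replicate 1, and 1 without cyclic replicate 3 or 4 or pregnant replicate 3. OXTR, the oxytocin receptor through which oxytocin triggers prostaglandin pulses, was 0.281, 46.3, 40.6 and 74.4 array medians in the cyclic arrays and 2.16, 0.752, 3.56 and 1.22 in the pregnant arrays. Cyclic replicate 1 lay below every pregnant array, whereas the other cyclic arrays lay above all of them. The fold change over all arrays did not pass the test (−3.11 ± 1.28, SE, adjusted p = 0.156). Without cyclic replicate 1 it did (−4.99, adjusted p = 0.00011).

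ESR1, the estrogen receptor that precedes it, was 0.0547, 0.158, 0.172 and 0.211 in cyclic and 0.0349, 0.0207, 0.0367 and 0.0217 in pregnant arrays. It was well above background in 3 cyclic and in no pregnant arrays and was lower by at least 1.04-fold (adjusted p = 0.00191), a bound that falls below 1 when cyclic replicate 2, 3 or 4 or pregnant replicate 2 or 4 is left out. Both ESR1 probes moved the same way. GHR, the growth hormone receptor, was 2.44, 2.2, 3.21 and 5.37 in cyclic and 1.04, 0.765, 0.225 and 0.545 in pregnant arrays (−2.47 ± 0.59, adjusted p = 0.0226), and was no longer called without cyclic replicates 3 or 4 or pregnant replicate 3. PGR, the progesterone receptor, spread from 4.71 to 27.3 in cyclic and from 6.28 to 8.94 in pregnant cows and did not pass (−0.50, adjusted p = 0.461). The probes of the receptors begin as follows.
OXTR: gattctcttcggagactgtctggcacaggc
ESR1: gtctcccagctgggttcagatgactgtgca

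The enzymes and receptors of the prostaglandin pathway gave few calls, 3 of 35 higher and none lower. PTGS2, the inducible cyclooxygenase, was 6.55, 53, 93.3 and 13.7 in cyclic and 37.5, 23.5, 48.5 and 33.5 in pregnant arrays, with the pregnant values inside the cyclic range (0.42 ± 0.70, adjusted p = 0.759). PTGES, a prostaglandin E synthase, and HPGD, which degrades prostaglandins, had log2 fold changes of 0.30 and 0.79 with adjusted p = 0.822 and 0.458. AKR1B1, an aldose reductase with prostaglandin F synthase activity, was 114 to 216 in cyclic and 75.3 to 162 in pregnant cows (−0.63, adjusted p = 0.307). The receptors PTGER2 (0.86, adjusted p = 0.221) and PTGER4 (−0.75, adjusted p = 0.464) and the transporter SLCO2A1 (−0.79, adjusted p = 0.43) did not pass either, but SLCO2A1 was called lower without cyclic replicate 1 (−1.50, adjusted p = 0.0313). The 3 genes that rose were the carbonyl reductases CBR1 and CBR3 (1.42 and 1.13), of which at least CBR1 can turn prostaglandin E2 into F2α, and ANXA1 (1.46), an inhibitor of phospholipase A2. Each leave-out ended the call of at least 1 of the 3, and without cyclic replicate 3 or pregnant replicate 2 none of them passed. With slide as a random block 1 of the 3 did.

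**Figure D2:**
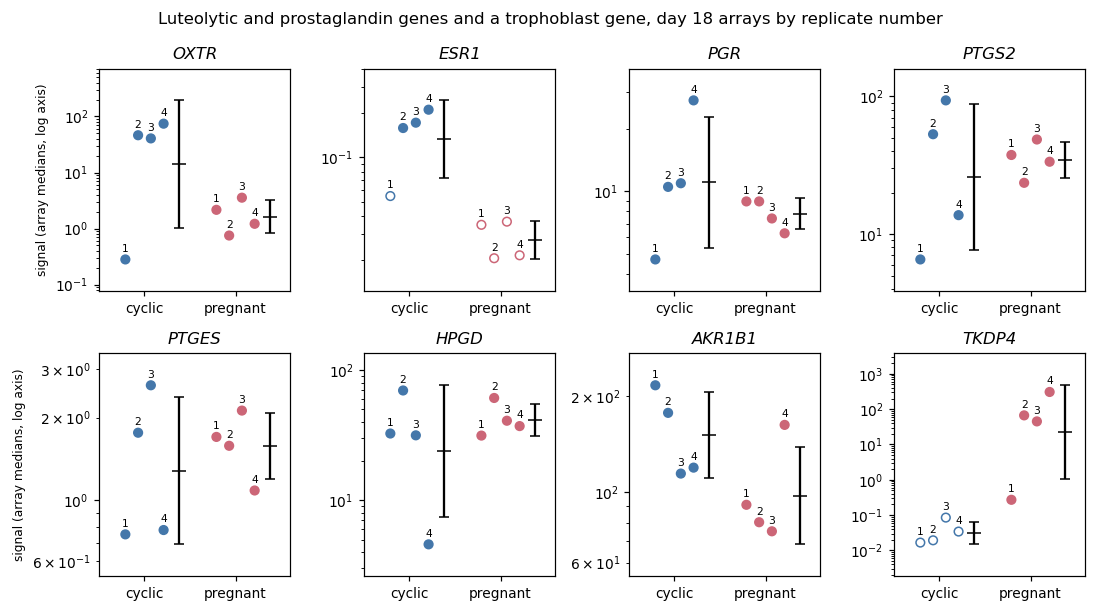
Levels in array medians, on log axes, of luteolytic and prostaglandin genes and of the trophoblast gene TKDP4 in the 4 cyclic and 4 pregnant arrays of day 18, each point marked with its replicate number. Open points are not well above background, and bars give the mean ± SD of the log2 levels (n = 4). OXTR in cyclic replicate 1 stands at 0.281 and TKDP4 in pregnant replicate 1 at 0.271, apart from the other 3 arrays of each group.

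Genes of vessels fell without a rise among them. Of 49 vascular growth factors and endothelial markers 7 were lower (14.3%, against 2.14% of all genes) and none was higher, and the median log2 fold change was −0.29. NPR3, the clearance receptor for natriuretic peptides, was 0.252, 0.672, 1.24 and 1.31 in cyclic arrays and 0.0835, 0.0279, 0.0575 and 0.0994 in pregnant arrays, where it was never well above background, so that it was lower by at least 5.66-fold (adjusted p = 0.00995). TIE1, a receptor of endothelial cells, was 0.259 to 0.818 and 0.0793 to 0.19 (−1.87, adjusted p = 0.0146), and was no longer called without pregnant replicate 2. VEGFA, the main vascular growth factor, was 0.605, 1.27, 1.32 and 2.17 in cyclic and 0.582, 0.585, 0.679 and 0.419 in pregnant arrays. Its groups overlapped, and its call (−1.13, adjusted p = 0.0443) held only when cyclic replicate 1 was the array left out. The endothelial markers TEK, ESAM, KDR, CDH5 and VWF did not pass, with log2 fold changes of −0.38, 0.13, −0.32, −0.01 and −1.22, while PECAM1 fell by 1.54. The list had 5 falls without pregnant replicate 2 and 9 under quantile normalization.

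Molecules by which leukocytes leave the blood moved both ways, 2 of 15 higher and 2 lower (13.3% each, against 4.51% and 2.14% of all genes). SELE, the E-selectin that activated endothelium displays, was 1.64, 1.99, 2.28 and 2.73 in cyclic and 0.0603, 0.179, 0.187 and 0.0891 in pregnant arrays, with no overlap. Its log2 fold change of −4.20 ± 0.93 (adjusted p = 0.0154) was the most negative among named genes called, although it was well above background in 2 pregnant arrays only. AOC3, the vascular adhesion protein-1 amine oxidase, was 0.901 to 1.71 in cyclic and 0.455 to 0.7 in pregnant arrays (−1.31, adjusted p = 0.00322). Leaving out any single array did not end the calls of SELE or AOC3.

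Genes of the extracellular matrix fell more often than they rose. Of 75 collagens, matrix proteins and integrins 9 were lower (12%) and 1 was higher (EPYC), and the median log2 fold change was −0.34. VCAN, the large proteoglycan versican, was 10.2, 10.4, 8.58 and 11.4 in cyclic and 2.75, 2.54, 2.07 and 2.64 in pregnant arrays. The groups were far apart and tight, with means of 10.1 ± 1.15 and 2.5 ± 0.299 (SD, n = 4), and the difference of −2.02 ± 0.29 (SE) passed in every leave-out (adjusted p = 0.000788). COL1A1, the main chain of type I collagen, was 1.68, 1.01, 1.11 and 3.22 against 0.427, 0.515, 0.366 and 0.32 (−1.97, adjusted p = 0.00759). POSTN, the matricellular protein periostin, was 0.291, 0.779, 0.42 and 1.18 in cyclic arrays and not well above background in any pregnant array, lower by at least 4.53-fold (adjusted p = 0.000927). The remaining falls in the list, counted and not given with values, were LOXL1, LOX, TNXB, COL12A1, HAS2 and FBLN5. Of the 8 stromal markers COL1A1 alone was called, and their median log2 fold change was −0.47. COL1A2 (−1.38), VIM (−0.92), COL3A1 (−0.68) and LUM (−0.27) had negative differences and DCN (0.16), THY1 (0.09) and PDGFRA (0.44) positive ones, none of which passed. The number lower was 6 without cyclic replicate 4 or pregnant replicate 4 and 11 without cyclic replicate 1.

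Enzymes that remodel the matrix gave 2 falls and 1 rise among 58 genes (3.45% and 1.72%, against 2.14% lower and 4.51% higher of all genes). MMP2, a gelatinase, was 0.934 to 2.23 in cyclic and 0.556 to 0.838 in pregnant arrays (−1.22, adjusted p = 0.0384). TIMP1, an inhibitor of such enzymes, was 14.9 to 54.8 and 11.8 to 14.6 (−1.21, adjusted p = 0.0402). The probe named CTSV, a cathepsin, was 37.3 to 66.9 and 79.4 to 149 (1.02, adjusted p = 0.0363). Each of these 3 calls was lost in 4 or more of the 8 leave-outs, and the list had 7 falls without cyclic replicate 1, 5 under quantile normalization and none without cyclic replicates 3 or 4 or pregnant replicates 2, 3 or 4. With slide as a random block all 3 calls were lost. Other genes near the matrix fell as well. CTHRC1, a secreted collagen triple helix protein, and PAMR1, a secreted protein of regenerating muscle, belong to no list and fell by 2.53 and 2.54 on the log2 scale (adjusted p = 0.0108 and 0.0111). FKBP10, a chaperone of collagen, fell by 1.44 but lost its call in 5 leave-outs, and the fall of PAMR1 was 3.16 without cyclic replicate 1.

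Smooth muscle genes also fell, 4 of 25 (16%) with none higher and a median of −0.38. ACTA2, smooth muscle alpha-actin, was 3.3, 2.12, 7.98 and 14.1 in cyclic and 1.08, 0.239, 0.244 and 0.251 in pregnant arrays (−3.90 ± 0.62, SE, adjusted p = 0.00191). CNN1, calponin, was 94.1, 28.1, 61.6 and 148 against 28.9, 8.62, 8.11 and 6.86 (−2.69, adjusted p = 0.0063), with pregnant replicate 1 just above the lowest cyclic array. In ACTA2 and CNN1 alike pregnant replicate 1 was 3 or more times higher than the other pregnant arrays. ACTG2, gamma-actin of smooth muscle, fell by 2.13 (adjusted p = 0.0229), a difference of 1.54 without cyclic replicate 4 that stayed called, and not called without pregnant replicate 2 or 4. DES and SMTN did not pass (−1.13 with adjusted p = 0.095 and 0.37 with adjusted p = 0.557). Myometrium, vessel walls and contractile stroma share these genes, and their part in the result was not tested. MSTN, which stood in the striated muscle list but encodes the secreted growth inhibitor myostatin, was 0.961, 4.53, 2.59 and 2.37 in cyclic and 0.389, 0.607, 0.295 and 0.3 in pregnant arrays (−2.58, adjusted p = 0.00153). It was the only call among 26 genes of that list.

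**Figure D3:**
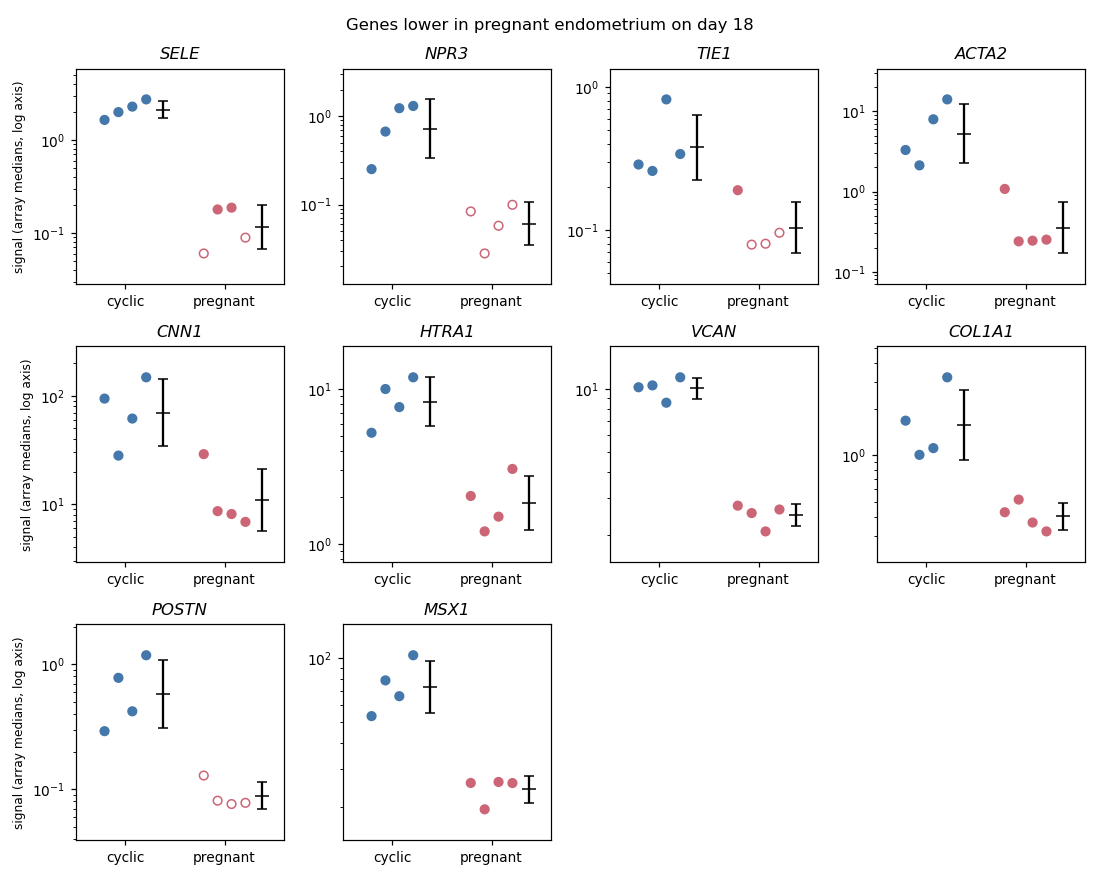
Levels in array medians, on log axes, of 10 genes that were lower in pregnant than in cyclic endometrium on day 18, 4 arrays a group. Open points are not well above background and bars give the mean ± SD of the log2 levels (n = 4). In all but CNN1 every pregnant array lies below every cyclic array, and VCAN has cyclic arrays of 8.58 to 11.4 over pregnant arrays of 2.07 to 2.75.

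The insulin-like growth factor system had falls only, 3 of 18 (16.7%), or 1 without cyclic replicate 4 or pregnant replicate 3. HTRA1, a secreted protease that cuts matrix and binding proteins, was 5.23, 10, 7.67 and 11.9 in cyclic and 2.04, 1.2, 1.5 and 3.05 in pregnant arrays (−2.19, adjusted p = 0.00675), called in each leave-out. IGFBP3 was 3.2, 5.82, 7.92 and 11.2 in cyclic and 2.37 to 2.66 in pregnant arrays (−1.36, adjusted p = 0.0371), and passed only when cyclic replicate 1 was left out. IGFBP6, like IGFBP3 a carrier of the growth factors, was 21.5 to 56.7 and 6.85 to 20.9 (−1.47, adjusted p = 0.0197), and was lost without cyclic replicate 4 or pregnant replicate 3. IGF2 was 0.637 to 1.31 and 0.0917 to 0.621, fully apart yet short of the threshold (−1.84, adjusted p = 0.0769), and was called without pregnant replicate 1 (−2.24, adjusted p = 0.0398). IGF1 (0.11, adjusted p = 0.946, with its 2 probes of opposite sign), IGFBP1 (0.95, adjusted p = 0.472) and IGFBP2 (0.07, adjusted p = 0.969) did not pass.

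Other growth factors were mostly unmoved in calls, 1 higher and 1 lower of 26 (3.85% each, against 4.51% and 2.14% of all genes). FGF10, a stromal signal to epithelium, was 0.476, 0.419, 0.437 and 0.133 in cyclic and 1.11, 1.03, 1.05 and 0.646 in pregnant arrays (1.52, adjusted p = 0.0237), and was not called without pregnant replicates 1, 2 or 3. KITLG, the ligand of the KIT receptor on mast and stem cells, was 0.151 to 0.349 in cyclic arrays, not well above background in all pregnant arrays, and lower by at least 1.86-fold (adjusted p = 0.00156). SPP1, the adhesive phosphoprotein osteopontin, was 0.157, 0.572, 0.431 and 1.53 in cyclic and 9.08, 0.429, 6.8 and 1.41 in pregnant arrays, overlapping and not called (2.33 ± 1.17, adjusted p = 0.242).

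Solute carriers had more rises than falls in the fit of all arrays. Of 113 solute carriers 9 rose (7.96%, against 4.51% of all genes) and 1 fell, SLC6A9, and the median log2 fold change was 0.28. SLC7A9, the light chain of a transporter for cystine and basic amino acids, was not well above background in all 4 cyclic arrays and 0.433, 0.852, 0.619 and 0.375 in pregnant arrays, at least 6.58-fold higher (adjusted p = 0.000144). It was called in each leave-out, and also with scan day as a block, which cannot separate scan from pregnancy. SLC2A1, the glucose transporter GLUT1, was 17.9, 47.4, 42.3 and 9.73 in cyclic and 141, 147, 139 and 144 in pregnant arrays. The pregnant cows were nearly equal, with a mean of 143 ± 3.56 (SD, n = 4), where the cyclic cows were spread out, and the difference was 2.55 ± 0.47 (SE, adjusted p = 0.00586). SLC15A1, a peptide transporter, was 0.168, 3.67, 1.27 and 0.424 in cyclic and 9, 3.17, 23.8 and 31.3 in pregnant arrays (3.99, adjusted p = 0.0411). The groups overlapped, 6 of 8 leave-outs ended the call, and the value ran from 3.27 without cyclic replicate 1 to 4.75 without cyclic replicate 2, being 4.63 without pregnant replicate 2. The number of solute carriers that rose was 4 without cyclic replicate 3 or pregnant replicate 4, and those that fell were 5 without cyclic replicate 1 and 4 under quantile normalization. With slide as a random block 4 of the 113 solute carriers rose, beside 184 of all 5323 genes, and the fall of SLC6A9 was lost.

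Of 99 lipid genes 2 rose and 2 fell (2.02% each, against 4.51% higher and 2.14% lower of all genes). The falls were 7 without cyclic replicate 1, 4 without pregnant replicate 1 or under quantile normalization, and none without cyclic replicate 3 or pregnant replicates 2, 3 or 4. FABP3, a cytosolic fatty acid carrier, was 0.7, 8.96, 9.48 and 1.11 in cyclic and 69.4, 74.2, 149 and 118 in pregnant arrays (5.10 ± 0.77, SE, adjusted p = 0.00143). Cyclic replicates 2 and 3 lay well above the other 2, and the value without cyclic replicate 1 was 4.42. STARD5, a carrier of sterols, rose by 1.22 and TM7SF2, a sterol reductase, fell by 1.90 on the log2 scale, and each call was lost in 6 leave-outs. GPLD1, which cuts glycosylphosphatidylinositol anchors and was in no list, was 0.244, 11.5, 14.4 and 2.75 in cyclic and 37.5, 36.8, 69.7 and 55.8 in pregnant arrays (3.89, adjusted p = 0.0288). Its value was 2.64 without cyclic replicate 1, 4.50 without cyclic replicate 2 and 4.60 without cyclic replicate 3, and without cyclic replicate 4 or pregnant replicates 2, 3 or 4 it was not called. PLA2G3, a secreted phospholipase A2 in no list, went down, from 0.749, 4.16, 2.61 and 3.33 to 0.19, 0.32, 0.368 and 0.426 (−2.87, adjusted p = 0.00671).

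Among ion channels and water channels 7 of 77 were higher (9.09%) and 1 was lower. KCNIP4, a calcium-binding subunit of A-type potassium channels, was 0.31, 0.115, 0.0639 and 0.0608 in cyclic and 0.757, 2.81, 1.95 and 0.79 in pregnant arrays (3.63, adjusted p = 0.00201), and was well above background in 2 cyclic arrays. KCNC1, a potassium channel, rose by 2.07 and the water channel AQP8 by 1.84, each well above background in 1 cyclic array. None of these 3 calls was lost in a leave-out, while the count of the list was 4 without cyclic replicate 3 or pregnant replicates 2 or 3. The pumps and their subunits held 2 falls in 41 genes (4.88%, against 2.14% of all genes). ATP1B1, the beta subunit of the sodium pump, was 2.08 to 5.73 and 1 to 1.21 (−1.49, adjusted p = 0.0272). FXYD3, a small regulator of it, was not well above background in the pregnant arrays. The bound for FXYD3 was 0.774-fold, under 1, so its call shows no fall against the faintest measured signal. ATP1B1 was lost in 4 leave-outs and FXYD3 in 2.

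Epithelial junctions and keratins had 6 rises and no fall among 49 genes (12.2% higher, against 4.51% of all genes). Of the 6, only 3 were well above background in all 4 pregnant arrays. CLDN16 and KRT15 were so in 3 pregnant arrays and CLDN18 in 1. The probes named GJB2 and GJB6, for connexins 26 and 30 that form gap junctions, proved to be the same 60 bases, and the 2 lines below show the shared start.
GJB2: agtcttcatgatcgcagtgtctggaatttg
GJB6: agtcttcatgatcgcagtgtctggaatttg
They are 1 measurement, made on 2 spots. The spot named GJB6 gave 0.0266, 0.271, 0.446 and 0.122 in cyclic and 1.52, 0.657, 3.35 and 1.71 in pregnant arrays (3.46, adjusted p = 0.00969), and that named GJB2 gave 3.14 on the log2 scale. Without cyclic replicate 1 these values were 2.66 and 2.41. Which of the connexins bound is not settled by the sequence in the files, and the count of 6 thus stands for 5 measurements. KRT15, a basal keratin, rose by 3.06 (adjusted p = 0.0306), but was 0.1 in pregnant replicate 1 and 0.279, 0.394 and 1.8 in the others. Its value was 3.69 without pregnant replicate 1 and 2.30 without pregnant replicate 4, and 6 leave-outs ended its call. With cyclic replicates 3 or 4 or pregnant replicates 2, 3 or 4 left out, 4 genes of the list rose, and 1 gene fell under quantile normalization and 3 without cyclic replicate 1.

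**Figure D4:**
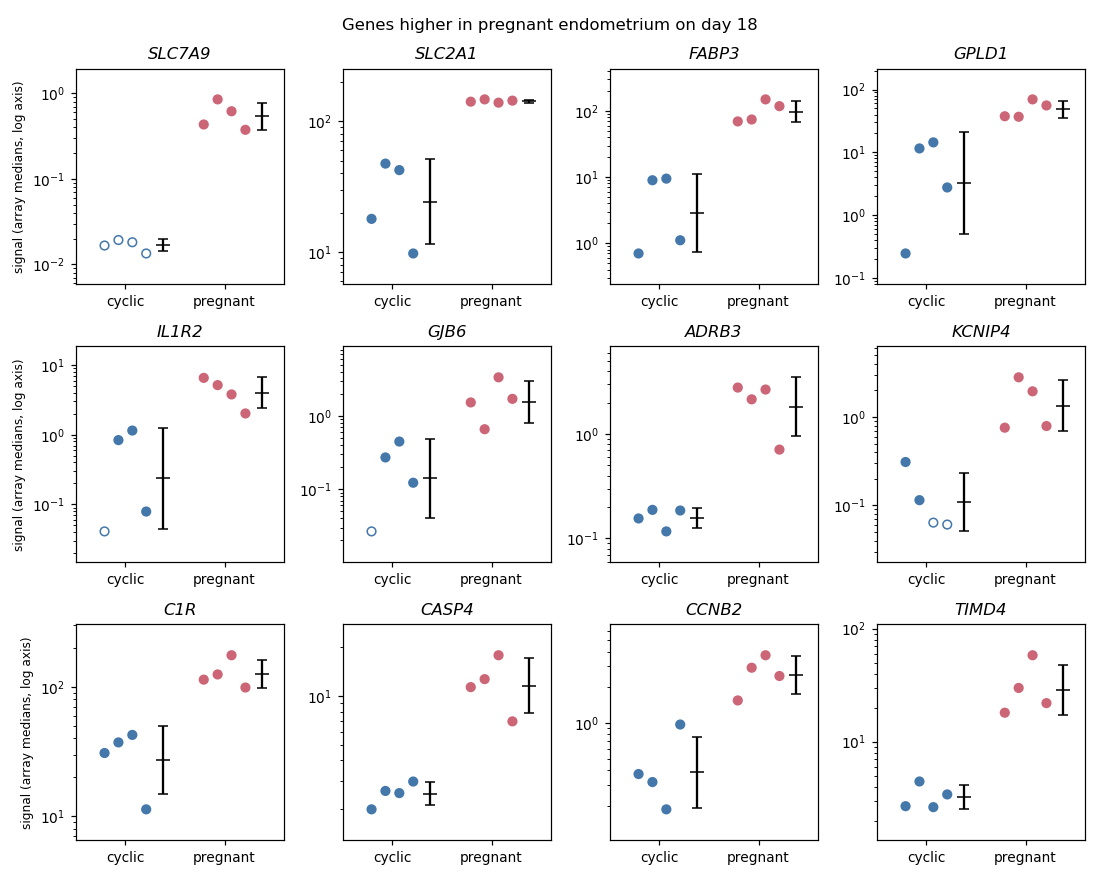
Levels in array medians, on log axes, of 12 genes that were higher in pregnant than in cyclic endometrium on day 18, 4 arrays a group. Open points are not well above background and bars give the mean ± SD of the log2 levels (n = 4). Every pregnant array lies above every cyclic array in all 12 panels, and SLC2A1 runs from 139 to 147 in the pregnant arrays.

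Some complement and leukocyte genes rose beside the interferon response, while most genes of both lists were not called. Of 42 complement and coagulation genes 6 rose (14.3%) and 2 fell, while 4 fell without cyclic replicate 1. C1R, a protease of the first complement component, was 30.8, 37.3, 42.6 and 11.3 in cyclic and 114, 125, 176 and 99 in pregnant arrays (2.20, adjusted p = 0.00504). C2, the next protease of the classical pathway, was 0.286 to 0.754 and 2.68 to 5.18 (2.98 ± 0.35, adjusted p = 0.000149) and was called with scan day as a block. Of 46 myeloid and general leukocyte genes 5 rose (10.9%), none fell, and the median was 0.67. C1QB and C1QC, chains of complement C1q made by macrophages, rose by 2.09 and 1.98, and FCGR3A, an antibody receptor of natural killer cells and macrophages, was 0.11 to 0.147 in cyclic and 0.559 to 1.05 in pregnant arrays (2.60, adjusted p = 0.000343). The count of the myeloid list was 3 without cyclic replicate 3 or pregnant replicates 2 or 3. Among the 10 leukocyte markers ITGB2 alone was called. CD14 (0.82, adjusted p = 0.189), CD53 (0.92, adjusted p = 0.092) and CD68 (0.11, adjusted p = 0.902) did not pass.

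Genes of T and natural killer cells had a median of 0.68 with 3 of 25 higher. CD69, an early activation marker, was 0.354 to 0.46 in cyclic and 1.19 to 3.38 in pregnant arrays (2.34, adjusted p = 0.00373). KLRB1, a natural killer receptor, rose by 2.54 (adjusted p = 0.00231), and KLRD1 by 1.57, with a call lost in 7 leave-outs. CD3E (0.68, adjusted p = 0.301), CD2 (0.02, adjusted p = 0.984) and CD3D (0.10, adjusted p = 0.907) did not pass. Of 13 B and plasma cell genes none was called by limma or by the methods' t-test after adjustment, and 3 had an unadjusted limma p under 0.05. Antigen presentation had 5 of 21 higher (23.8%) and none lower, with B2M, the light chain of class I molecules, at 126 to 189 in cyclic and 349 to 598 in pregnant arrays (1.49, adjusted p = 0.0057). BOLA-DMB and BOLA-DOB, which belong to the class II side of antigen presentation, rose by 1.76 and 1.31.

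Cytokines outside the chemokines gave 2 rises and 1 fall in 62 genes (3.23% and 1.61%, under the 4.51% and 2.14% of all genes). IL1R2, the decoy receptor that binds interleukin-1 without signalling, was 0.041, 0.837, 1.15 and 0.079 in cyclic and 6.55, 5.15, 3.79 and 2.02 in pregnant arrays (4.08 ± 0.90, adjusted p = 0.0154). It was 3.24 without cyclic replicate 1, 4.69 without cyclic replicate 2 and 4.85 without cyclic replicate 3, called each time. TNFSF13B, the B cell survival factor BAFF, was 0.0942 to 0.219 and 0.554 to 2.26 (3.32, adjusted p = 0.00143). IFNAR1, a chain of the receptor for type I interferons, was well above background in 2 cyclic and no pregnant arrays, its bound of 1.04-fold lower fell below 1 in 4 leave-outs, and 3 ended its call. CLEC6A, a lectin receptor of myeloid cells, rose by 2.72 as the single call among 12 galectins and lectins. TIMD4, a receptor for dying cells on macrophages, belongs to no list and was 2.69, 4.45, 2.64 and 3.42 in cyclic and 18, 29.9, 58.1 and 21.9 in pregnant arrays (3.16, adjusted p = 0.000246). IFI47, an interferon-inducible GTPase also outside the lists, rose by 4.00 (adjusted p = 0.00763), or 2.92 without cyclic replicate 3, where it was 0.075.

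Of 49 cell death genes 7 were higher (14.3%, against 4.51% of all genes) and none was lower, with a median log2 fold change of 0.13. CASP4, an inflammatory caspase, was 2, 2.59, 2.52 and 2.96 in cyclic and 11.3, 12.7, 17.8 and 6.96 in pregnant arrays (2.21 ± 0.28, SE, adjusted p = 0.000303), called in each leave-out. BCL2L14 and BCL2A1, members of the BCL2 family, rose by 1.94 and 1.64 and lost their calls in 6 and 5 leave-outs, and the count of the list was 4 without pregnant replicate 3. Of 90 cell cycle genes 4 were higher (4.44%, against 4.51% of all genes) and 1 was lower. The list had 2 higher without cyclic replicate 3 or pregnant replicates 2 or 4, and 6 higher without pregnant replicate 1. CCNB2, a mitotic cyclin, was 0.37, 0.317, 0.187 and 0.97 in cyclic and 1.55, 2.93, 3.73 and 2.49 in pregnant arrays (2.74, adjusted p = 0.00201), and CCND3, a cyclin of the first gap phase, 14.2 to 25 and 38.1 to 62 (1.44, adjusted p = 0.00264). CCNT1, which pairs with a kinase of transcription and not of the cycle, fell by 1.34 and lost its call in 6 leave-outs. In DNA repair BRCA1 rose by 1.35 and UNG fell by 1.34 among 38 genes, lost in 2 and 3 leave-outs. DMC1, a meiotic recombinase in no list, was not well above background in the cyclic arrays. It was 0.147, 0.74, 0.235 and 0.255 in the pregnant arrays, at least 3.46-fold higher (adjusted p = 0.00012). DMC1 was also called with scan day as a block, which cannot separate scan from pregnancy.

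Protein turnover gave 5 rises among 146 proteasome and ubiquitin genes (3.42%, under the 4.51% of all genes). None of them fell, or 2 under quantile normalization. TRIM6, a ubiquitin ligase of the interferon response, was 1.11 to 1.79 in cyclic and 4.98 to 9.2 in pregnant arrays (2.45 ± 0.25, adjusted p = 5.01e-05). PSMF1, an inhibitor of the proteasome, was 2.69 to 4.01 and 10.3 to 12.7 (1.78, adjusted p = 0.000223), and RNF114, a ubiquitin ligase, 20.9 to 32.9 and 67.3 to 104 (1.50, adjusted p = 0.000571). Oxidative stress and detoxification held 7 of 83 higher and 2 lower, while 5 were lower without cyclic replicate 1. Those given with values were the transcription factor NFE2L3 (1.81), the glutaredoxin GLRX (1.75) and the paraoxonase PON3 (−1.71). CYP1A1 and CYP3A4 counted among those 7 were not well above background in any array of day 18. Stress genes split, 2 of 24 higher and 2 lower (8.33% each, against 4.51% and 2.14% of all genes). GADD45B, which responds to stress and cytokines, was 7.41 to 21.2 in cyclic and 21.5 to 49 in pregnant arrays (1.48, adjusted p = 0.0169), lost without cyclic replicate 3 or pregnant replicate 2. Its relative GADD45G went the other way, from 0.239, 0.265, 2.21 and 11.4 to 0.154, 0.0722, 0.0367 and 0.0943 (−3.84, adjusted p = 0.0257). The change of GADD45G was 2.72 lower without cyclic replicate 4 and 4.58 or 4.53 lower without cyclic replicate 1 or 2, and it was not called without cyclic replicate 3 or pregnant replicates 2 or 3. IER3, an early response gene, was 38.5, 70.2, 153 and 230 in cyclic and 19.4 to 32.2 in pregnant arrays (−2.00, adjusted p = 0.033), lost in 5 leave-outs.

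Of 59 developmental transcription factors 5 were lower (8.47%, against 2.14% of all genes) and none was higher. Their median log2 fold change was 0.03, and 30 of the 59 had a positive difference. MSX1, a homeobox factor of uterine epithelium and stroma linked with the receptive state, was 53.3, 78.5, 66.2 and 103 in cyclic and 25.9, 19.4, 26.2 and 25.8 in pregnant arrays (−1.60 ± 0.37, SE, adjusted p = 0.0197). Every cyclic cow lay above every pregnant cow, and the call was lost without cyclic replicate 4 or pregnant replicate 2. HOXA2 (−1.60) and HOXB7 (−1.47), homeobox genes of body patterning, lost their calls in 4 and 6 leave-outs, and the list had 1 fall without cyclic replicate 4 or pregnant replicate 2. RARA and NR1H2, nuclear receptors for retinoic acid and oxysterols, were the other 2. Of 37 Wnt, TGF-beta, BMP and activin genes and of 13 Notch, Hedgehog and Hippo genes none was called by limma or by the methods' t-test after adjustment, with 3 and 1 at an unadjusted limma p under 0.05, and the leave-outs gave at most 2 and 1 calls.

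Of 113 G protein-coupled receptors and regulators 4 were higher (3.54%, against 4.51% of all genes) and 6 lower (5.31%, against 2.14%). Without pregnant replicate 3 the falls were 3, and without cyclic replicate 3 or pregnant replicate 2 the rises were 2. ADRB3, the beta-3 adrenergic receptor, was 0.155, 0.188, 0.117 and 0.185 in cyclic and 2.78, 2.15, 2.66 and 0.708 in pregnant arrays (3.53 ± 0.41, adjusted p = 0.000144), called with scan day as a block. GAL, the neuropeptide galanin, was 4.32, 9.45, 18.5 and 44.6 in cyclic and 3.84, 1.52, 1.72 and 2.73 in pregnant arrays (−2.57, adjusted p = 0.017), and lost its call without cyclic replicate 3 or pregnant replicates 2 or 3. The rise of HTR2B, a serotonin receptor, rested on signals not well above background in all 8 arrays and is given no fold. SEMA5B, a guidance molecule, fell by 2.20 (adjusted p = 0.00201) as the only call among 53 neuronal and endocrine genes. AKT1, a kinase of growth factor signalling in no list, was 0.465, 0.839, 1.29 and 1.01 in cyclic and 0.436, 0.0883, 0.0367 and 0.279 in pregnant arrays (−2.58, adjusted p = 0.0232). Pregnant replicate 1 nearly reached the lowest cyclic value, the change was 1.94 lower without pregnant replicate 3, and 4 leave-outs ended the call.

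Metabolic and housekeeping classes held few calls. Of 94 respiratory chain genes only NDUFA4L2, a variant subunit made under low oxygen, was called, at 0.973 to 2.71 in cyclic and 0.253 to 0.388 in pregnant arrays (−2.22, adjusted p = 0.00121), while 78 of the 94 had a positive difference and the median was 0.29. Hypoxia and glycolysis genes had 2 rises and 3 falls in 36, or 1 of each with slide as a random block, with ANKRD37 up by 1.56 and G6PC3 down by 1.23, each lost in 6 leave-outs, and with GYS1 not well above background in all 8 arrays. Of 122 further mitochondrial genes 3 rose and 2 fell (2.46% and 1.64%, under the 4.51% and 2.14% of all genes). PYCR1, which makes proline, was 3.13, 4.45, 4.46 and 26.5 in cyclic and 1.07, 0.76, 0.918 and 0.707 in pregnant arrays (−2.90, adjusted p = 0.00504), or 2.22 lower without cyclic replicate 4. MRPL47, of the mitochondrial ribosome, rose by 1.22, and ALDH3A1 was not well above background throughout. Of 68 cytosolic ribosomal genes RPL3L alone was called (1.47), a relative of RPL3 known from striated muscle. POLR1B and UTP23, called among 77 translation genes, serve the making of ribosomal RNA and lost their calls in 6 leave-outs each and with slide as a random block. Of 106 RNA processing genes and 35 antimicrobial and secreted epithelial proteins none was called by limma or by the methods' t-test after adjustment, with 21 and 9 at an unadjusted limma p under 0.05 and at most 1 and 4 calls in the leave-outs.

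Chaperones had 2 rises, CRYAB (1.30) and DNAJC6 (1.64), and 2 falls among 78 genes, with calls of CRYAB and DNAJC6 lost in 7 and 6 leave-outs. Rises and falls were 2.56% each, against 4.51% and 2.14% of all genes. All 4 calls of the chaperones were lost with slide as a random block. Of 101 actin, tubulin and motor genes 2 rose and 2 fell (1.98% each, under the shares of all genes), while 7 fell without cyclic replicate 1. TUBB, a beta-tubulin, was 10 to 25.8 in cyclic and 3.91 to 5.48 in pregnant arrays (−1.65, adjusted p = 0.00782), the GTPase-activating protein ARHGAP42 fell by 1.88 and lost its call in 5 leave-outs, and the tubulin chaperone TBCE was well above background in 1 pregnant array only, which gave a bound of 1.11-fold higher that dropped under 1 without pregnant replicate 1 or 2. Vesicle traffic had 5 rises and 4 falls in 174 genes (2.87% and 2.3%, against 4.51% and 2.14% of all genes). The falls were 9 without cyclic replicate 1 and 1 without cyclic replicate 2 or 4, without pregnant replicate 2 or 3, or with slide as a random block. RAB3B, a GTPase of secretory granules, was 0.509, 0.62, 1.01 and 0.0369 in cyclic and 2.65, 2.92, 2.21 and 3.7 in pregnant arrays (3.10, adjusted p = 0.0451), or 2.05 without cyclic replicate 4, with 6 leave-outs ending the call. ARL2 fell by 1.78, lost in 5 leave-outs, and RABL3 was not well above background in all 8 arrays.

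Of 72 glycan genes MGAT4A, which adds a branch to N-linked glycans, was the only rise, from 0.103, 0.208, 0.14 and 0.169 in cyclic to 0.788, 1.31, 1.9 and 2 in pregnant arrays (3.23 ± 0.45, adjusted p = 0.000633), called in each leave-out. B3GAT3, which starts the chains of heparan and chondroitin sulfate, fell by 1.36 and GMDS, of GDP-fucose synthesis, by 1.01, lost in 6 and 4 leave-outs, while 5 glycan genes fell without cyclic replicate 1. KMT5A, a histone methyltransferase, was the only call among 64 histone and chromatin genes, lower by at least 1.28-fold (adjusted p = 0.0189), and was not called in 4 leave-outs.

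Whether these changes differed from those of day 15 was asked with an interaction term over all 15 arrays, in which 174 of the 5323 genes (3.27%) passed with a difference over 2-fold. The list of interferon-stimulated genes held 22 of them among 42 genes. Solute carriers held 8 of 113, ion channels 6 of 77, G protein-coupled receptors 6 of 113 and complement 2 of 42. The steroid receptor (27 genes), insulin-like growth factor (18), smooth muscle (25) and myeloid (46) lists held none. At the share of all genes, lists as small as these last would hold few or none. SELE was 2.23 higher in pregnant than in cyclic endometrium on day 15, without passing (adjusted p = 0.315), and 4.20 lower on day 18, an interaction of −6.43 ± 1.37 (SE, adjusted p = 0.0267). FABP3 had a day 15 difference of −1.03 (adjusted p = 0.602) and an interaction of 6.13 (adjusted p = 0.0143). For SLC2A1 the day 15 difference was −0.39 and the interaction 2.95 (adjusted p = 0.0377), and for CCNB2 −0.10 and 2.83 (adjusted p = 0.033). For VCAN, ACTA2, COL1A1 and HTRA1, called on day 18, the interaction did not pass (adjusted p = 0.0629, 0.0595, 0.06 and 0.0634). OXTR had a day 15 difference of −0.38 and an interaction of −2.74 with adjusted p = 0.456. No probe passed for the interaction with scan day as a random block, where limma gave 844 at an unadjusted p under 0.05. The cyclic and pregnant arrays of day 15 shared no slide or scan day either, so here too scan and pregnancy cannot be told apart.

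**Figure D5:**
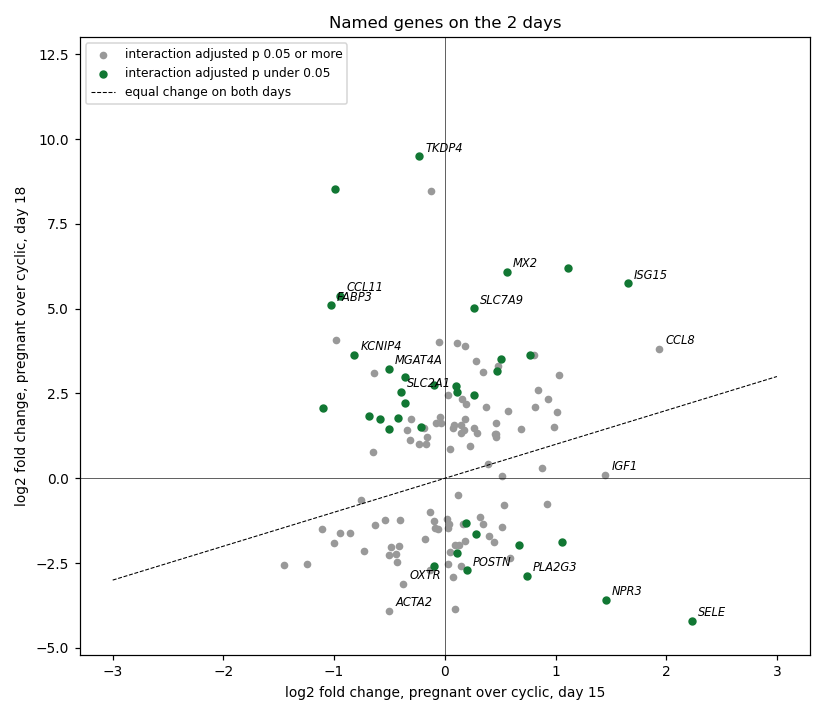
Log2 fold change of pregnant over cyclic endometrium on day 15 (x axis) and day 18 (y axis) for 133 named genes, of which 119 were called on day 18. The dashed line marks where both are equal. Green points have an interaction adjusted p under 0.05 (36 genes), and SELE lies at 2.23 on day 15 and −4.20 on day 18. Genes that were not well above background in a group are drawn at their fitted values, which are no bounds.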

How the data were processed

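RNA of caruncular endometrium was hybridised to a custom one-colour (Cy3) bovine array of 15744 spots, with 1 array per cow. The authors extracted the signals with Agilent Feature Extraction 9.5; the deposited intensity used here is its processed signal, and the deposited log2 table holds the authors' scaled values, which differed from log2 signals scaled to the 75th percentile of each array by −0.0126 to −0.00519, where the methods name the median. Each array was scaled here to the median over its 15208 non-control probes before taking log2. Probes well above background in 3 or more of the 15 arrays (13164) were fitted in limma 3.58.1 (R 4.3.3) with 1 mean per group over all 15 arrays, and adjusted by Benjamini-Hochberg. Called means adjusted p under 0.05 and over 2-fold. Signals off by outlier flags (16 spots in the arrays of day 18) were left missing.

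Genes were named from the files and the RefSeq table of assembly ARS-UCD2.0 (6230 probes named, 8978 not), with the brightest probe taken for each. Where a group was below background on all its arrays, the fold is a bound against the faintest signal well above background. The members and the 49 lists were chosen with earlier results of these data known; each gene counts in 1 list. The text gives values for the 12 largest rises and falls that separate the groups outside the interferon, chemokine and trophoblast lists, the 3 largest in each of those, a set of luteolytic, prostaglandin and growth factor genes (PTGFR and LIF had no tested probe), and up to 3 called genes of the largest change in each list. Tested on simulated data for this comparison (13130 probes, 200 changed), the fit recovered 60% of changes of 1.5 and 92% of changes of 2.5 on the log2 scale. False calls numbered 4 and 8. The simulated noise held no effect of slide or scan day, so these rates do not cover the split of scan days between the groups. The number of arrays limits the precision. Alternatives were other scalings, background corrections, filters, array weights, blocks, the methods' t-test, exact permutation tests, whose smallest p for 4 against 4 is 0.0286, and leaving out each array of day 18. A planned search of promoters was not run. A few genes that this rule picks are not reported here.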

Additional observations from a re-analysis of the deposited data

Results flagged for a closer look

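Arrays standing apart from the other 3 of their group by a gap that fills most of the group's range in log2 level (Dixon's criterion for 4 samples) were found in 14 of 266 gene and group pairs tested, where chance flags about 1 in 20. The gap was 0.967 for ACTA2, 0.841 for CNN1 and 0.882 for POSTN, each with pregnant replicate 1 highest, 0.96 for MSX1 with pregnant replicate 2 lowest, 0.887 for CCL11 with pregnant replicate 3 highest, 0.869 for NDUFA4L2 with pregnant replicate 3 lowest, and 0.831 for PSMF1 and 0.86 for FGF10 with pregnant replicate 4 lowest. In cyclic cows it was 0.892 for OXTR and 0.941 for B3GAT3 with replicate 1 lowest, 0.832 for AOC3 with replicate 2 lowest, 0.877 for IFI47 with replicate 3 lowest, 0.9 for FGF10 with replicate 4 lowest and 0.834 for PYCR1 with replicate 4 highest.

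For 36 of the 133 genes given with values the interaction of day and pregnancy had an adjusted p under 0.05. Over all 5323 genes 3.27% passed, there with a difference over 2-fold as well. Of the 133 genes 119 were called on day 18, and that change is part of the interaction. Their share is therefore raised by the choice of genes. The difference of the log2 fold changes, day 18 minus day 15, was above 0 for FABP3 (6.13), MX2 (5.53), OAS2 (5.08), KCNIP4 (4.45), ISG15 (4.09), MGAT4A (3.73), C2 (3.34), KCNC1 (3.17), ADRB3 (3.02), SLC2A1 (2.95), CCNB2 (2.83), TIMD4 (2.69), CLEC6A (2.62), CASP4 (2.57), AQP8 (2.53), KLRB1 (2.43), GLRX (2.34), PSMF1 (2.21), TRIM6 (2.18), CCND3 (1.95) and RNF114 (1.71). It was below 0 for SELE (−6.43), PLA2G3 (−3.61), ARHGAP42 (−2.94), MSTN (−2.49), SEMA5B (−2.31), TUBB (−1.93) and AOC3 (−1.50). For genes below background in every array of a group the adjusted p alone is given: KITLG 0.0118, SLC7A9 0.0142, POSTN 0.0189, CCL11 0.0211, DMC1 0.0259, NPR3 0.0267, IFN-tau-c1 0.033 and TKDP4 0.0347.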

How the results depend on the processing

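All 119 called genes given with values kept their direction in every setting in which they were tested, and 68 kept their call in each of the 8 leave-outs. Of the 757 called probes (481 higher, 276 lower), the leave-outs gave 428 to 1043 (304 to 590 higher, 124 to 453 lower). Counts that moved most, whose cause was not tested, were 477 (150 lower) with the arrays of day 18 alone, 1344 (753 higher, 591 lower) with array weights, 49 (48 higher, 1 lower) with scan day as a random block, 188 (149 higher, 39 lower) with the methods' t-test after adjustment and 1157 (479 lower) before it. The lower probes alone moved to 416 with quantile normalization and 169 with slide as a random block, and to 180 with the 9572 probes well above background in all 15 arrays, where fewer probes were tested. With 1 probe per gene symbol 354 (240 higher, 114 lower) were called, over fewer features by construction. The filter of 3 of the 8 arrays of day 18, added after seeing the data, gave 728. The interaction, 358 probes, ran from 161 to 418 in the leave-outs and (161, 169, 225 and 229 without pregnant replicate 2, cyclic replicate 3 and pregnant replicates 4 and 3), and was 1384 with normexp, 1332 with array weights, 179 with slide and 0 with scan day as a random block (844 at an unadjusted p under 0.05 in limma), and 192 with the replicate block.

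The replicate numbers of the titles did not pair the samples: deviations of same-numbered samples correlated at −0.0338, 0.00427, −0.125 and 0.0435. With them as a replicate block 614 probes were called (409 higher, 205 lower).

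Of the genes not called, PTGS2 turned to −0.58 with array weights and −0.24 without cyclic replicate 1 (up to 1.04 in leave-outs), PTGES to −0.17 with array weights, HPGD to −0.0079 without cyclic replicate 4 (up to 1.30 in leave-outs), and IGF1 to −0.59 and −0.26 without cyclic replicates 2 and 3 and −0.21 without pregnant replicate 3 (up to 0.74). IGFBP2 turned to −0.0081 with 75th percentile scaling, −0.025 with normexp, −0.0097 in the authors' table, −0.81 with array weights, −0.12 and −0.69 without cyclic replicates 1 and 4, and −0.0992 and −0.0932 without pregnant replicates 1 and 4 (up to 0.65). The planned promoter motif counts were not run, since no promoter sequence was used here. Signal over background limits genes near 0.1 array medians, of which 16 called higher were well above background in no pregnant array.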
